A study of Mus musculus with 9 samples.

Results

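The genes described here encode enzymes of glycolysis. They were chosen by gene symbol from a list of 9 (Gapdh, Pgk1, Eno1, Tpi1, Ldha, Aldoa, Pfkl, Gpi1 and Pgam1), using every probe that the array's annotation pairs with that symbol alone. A probe was found for 7 of the 9, and Eno1 and Gpi1 are not analysed here. The 7 genes stood among 15096 genes with a single symbol. Ldha, Pgk1, Pgam1, Tpi1, Aldoa and Pfkl had 1 probe each, whereas Gapdh was spotted 232 times, which gave 238 spots among the 23040 on each array.

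Each of 9 spotted 2-colour arrays carried pooled RNA from 5 male SJL/J mice and pooled RNA from 5 male C57BL/6J mice, all 8 weeks old and of 2 inbred strains. Liver, kidney and brain had 3 arrays each, and the arrays of a tissue were technical repeats of the same pools. The Alexa Fluor dyes of the SJL/J and the C57BL/6J pool were the same on all arrays, so a dye effect particular to a probe cannot be told apart from its strain ratio within a tissue. All p-values below measure the spread between arrays and not the spread between mice.

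The deposited values were log ratios, 1 for each spot and array. They are given here as log2 of SJL/J over C57BL/6J, so a negative value is lower in SJL/J. The base and the direction were taken from the order of the strains and dyes and the convention of the software named in the submitters' notes, and are likely but not stated. Only ratios were used, so no level of a gene is given, the identity of each tissue could not be checked against its markers, and fewer cells of a type could not be told apart from less RNA per cell. All 9 arrays held the same set of sorted values, so an array's overall centre or width carries no information.

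The third brain array stood apart. Over all spots it correlated with the kidney arrays at 0.58 to 0.63 and with the other 2 brain arrays at 0.52 to 0.57, whereas those 2 correlated with each other at 0.76 (Pearson r over spots, a description). Brain values of the glycolysis genes are therefore given with and without it.

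Glycolysis turns glucose into pyruvate in the cytosol and yields ATP and NADH without using oxygen. It runs in nearly all cells, with some enzyme forms limited to certain tissues. The genes of its reversible steps also serve gluconeogenesis in liver and kidney, where these steps run towards glucose. In the order of the pathway, Pfkl encodes the liver-type subunit of phosphofructokinase, the main controlled step, Aldoa encodes an aldolase that splits the sugar, and Tpi1 encodes the triose phosphate isomerase that interconverts the resulting triose phosphates. Gapdh encodes the dehydrogenase that makes NADH, Pgk1 the kinase that makes ATP next, Pgam1 a phosphoglycerate mutase, and Ldha the lactate dehydrogenase subunit that favours the reduction of pyruvate to lactate.

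In liver, 4 of the 7 genes were lower in SJL/J, 0 were higher and 3 did not pass the test. Ldha, Pgk1 and Pgam1 averaged -0.71, -0.79 and -0.70 and Gapdh -0.38 on the log2 scale. The test was limma's moderated test with Benjamini-Hochberg adjustment over all 21262 rows of the table and a threshold of 0.05. By the same test 25.4% of all rows passed in liver, 13.2% higher and 12.2% lower. The median of the 7 genes was -0.58, against -0.016 over all genes with 1 symbol. When the medians of probe positions on the array were taken out, Gapdh (-0.16) and Pgam1 (-0.38) no longer passed.

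Ldha had liver log2 ratios of -0.53, -0.78 and -0.84 on the 3 arrays, with a mean of -0.71 ± 0.16 (SD, n = 3) and an adjusted p of 0.00245. All 3 arrays lay well below 0. Ldha stayed past the threshold in liver under every other setting tried, arrays left out in turn included.

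Pgk1 had the lowest mean of the 7 genes in liver. Its ratios were -0.91, -0.72 and -0.75, with a mean of -0.79 ± 0.10 (SD, n = 3) and an adjusted p of 0.0464. Pgam1 followed with -0.60, -0.59 and -0.91, a mean of -0.70 ± 0.18 (SD, n = 3) and an adjusted p of 0.0489. All arrays of both genes lay below -0.5, and the large spread of both genes on the brain arrays enters the shared error of the fit. Pgk1 missed the threshold when the first brain array or any single kidney or liver array was left out (adjusted p 0.0610 to 0.176). Pgam1 missed it when the second brain array or any single kidney or liver array was left out (0.0617 to 0.212).

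Gapdh, as the median over its spots, had liver ratios of -0.35, -0.37 and -0.43. The mean was -0.38 ± 0.04 (SD, n = 3) with an adjusted p of 0.0369. Its arrays were the closest together of the 7 genes in liver, but the other 6 genes had 1 spot each. For single Gapdh spots, of which there were 232, the median SD over the liver arrays was 0.16. Leaving out any single kidney or liver array took Gapdh over the threshold (adjusted p 0.0511 to 0.148), while the mean stayed between -0.40 and -0.36.

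The 3 genes that did not pass in liver differed among themselves. Aldoa had -0.46, -0.30 and -0.99, a mean of -0.58 ± 0.36 (SD, n = 3) and an adjusted p of 0.0598, and all arrays were below 0. It passed in 5 other settings, namely rows with 1 symbol alone (adjusted p 0.04995), liver fitted alone (0.0336), array weights (0.0360) and without the second (0.0354) or the third (0.0390) brain array. Tpi1 had -0.38, 0.37 and -0.34, with a mean of -0.12 ± 0.43, so its second array went against the other 2. Without that array Tpi1 had -0.36 and passed as lower (adjusted p 0.0386). Pfkl had 0.05, 0.64 and 0.29, with a mean of 0.33 ± 0.30 and all 3 arrays above 0.

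**Figure D1:**
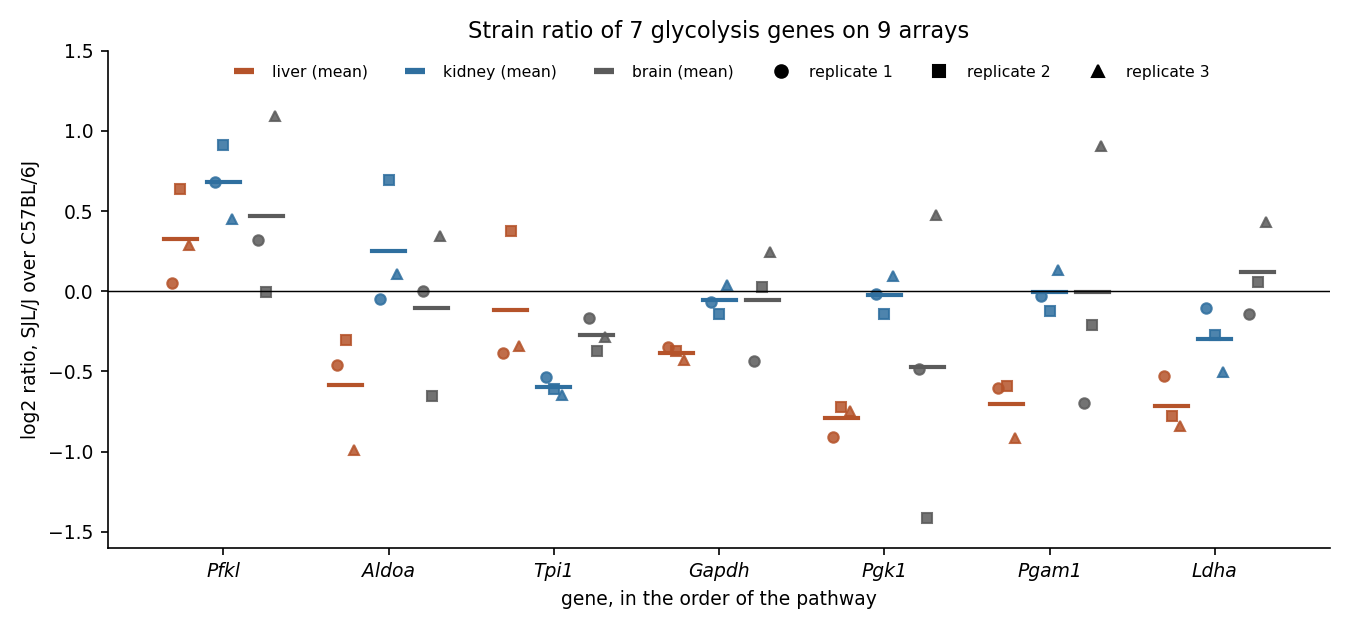
Log2 ratio of SJL/J over C57BL/6J (vertical axis) for the 7 glycolysis genes in pathway order (horizontal axis), 1 point for each array and a bar for the mean of 3 arrays, with liver left, kidney in the middle and brain right. The liver points of Gapdh, Pgk1, Pgam1 and Ldha all lie below -0.3, and the brain points of Pgk1 and Pgam1 span both sides of 0.

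Marker genes of cell types were read on the same liver arrays, where 25.4% of all rows passed, 13.2% higher and 12.2% lower. Of 7 measured hepatocyte markers, 5 were higher in SJL/J, 0 were lower and the median was 0.70, with Alb at 1.06. Of 8 macrophage and microglia markers, 1 was higher and 0 were lower. Of 3 erythroid markers, Hba-a1 (0.83) and Slc4a1 (0.36) were higher and Alas2 (-1.96) was lower. Of 9 skeletal muscle markers 1 was higher and 1 lower, of 7 neuron and astrocyte markers 1 was lower and of 8 proximal tubule markers 0 passed. The part of these cells in the glycolysis ratios was not tested.

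The 250 bases before the transcription start are shown for the 4 genes that passed as lower in liver. The genes were chosen by that call, and glycolysis promoters are known to hold hypoxia response elements. Sequences and starts are those of RefSeq on GRCm38.p6, 5′ to 3′ on the gene's strand. Capitals mark the cores ACGTG and GCGTG of such elements on either strand, so a palindrome counts on both strands and its matches overlap. The windows are chr7:46845554-46845803 (plus strand) for Ldha, chrX:106186850-106187099 (plus strand) for Pgk1, chr19:41911621-41911870 (plus strand) for Pgam1 and chr6:125165774-125166023 (minus strand) for Gapdh.
Ldha: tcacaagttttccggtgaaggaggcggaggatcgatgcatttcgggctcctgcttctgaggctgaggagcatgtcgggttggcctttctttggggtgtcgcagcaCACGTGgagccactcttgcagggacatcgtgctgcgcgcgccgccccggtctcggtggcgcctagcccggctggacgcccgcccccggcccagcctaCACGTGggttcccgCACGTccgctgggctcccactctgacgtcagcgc
Pgk1: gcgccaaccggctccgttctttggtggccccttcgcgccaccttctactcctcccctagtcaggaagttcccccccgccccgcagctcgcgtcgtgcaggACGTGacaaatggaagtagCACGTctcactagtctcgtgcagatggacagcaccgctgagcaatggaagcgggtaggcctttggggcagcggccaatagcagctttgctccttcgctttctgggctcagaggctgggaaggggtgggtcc
Pgam1: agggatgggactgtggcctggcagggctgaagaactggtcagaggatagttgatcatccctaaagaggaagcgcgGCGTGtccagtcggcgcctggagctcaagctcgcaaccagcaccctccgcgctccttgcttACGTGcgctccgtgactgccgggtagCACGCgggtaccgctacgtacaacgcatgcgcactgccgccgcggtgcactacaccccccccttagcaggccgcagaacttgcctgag
Gapdh: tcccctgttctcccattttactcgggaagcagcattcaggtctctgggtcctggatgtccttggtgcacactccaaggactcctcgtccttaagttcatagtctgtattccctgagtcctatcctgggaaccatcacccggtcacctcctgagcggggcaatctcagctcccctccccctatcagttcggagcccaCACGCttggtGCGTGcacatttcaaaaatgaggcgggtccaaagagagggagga
The Ldha window held 5 matches, all of them ACGTG or its complement, and the Pgk1 window held 2 of the same kind. Pgam1 had 3 matches, of which 1 was ACGTG, and Gapdh had 2, of which 0 were ACGTG. Of 32817 windows of this length, 38.6% held either core and 16.6% held ACGTG. The 7 genes had 10 such windows, as Ldha had 2 and Aldoa 3, and 8 of the 10 held either core. Of the Aldoa windows, 2 overlap and hold the same single match, which is thus counted in both, and the other held 0. The Pfkl window held 1 match, and neither Pfkl nor Aldoa passed in liver. The second Ldha window held 1 match, and the window of Tpi1 held 0. These are matches of letters and not measured binding, and their part in the liver ratios was not tested.

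In kidney, Pfkl was higher in SJL/J, Tpi1 was lower and the other 5 genes did not pass. By the same test 29.6% of all rows passed in kidney, 15.1% higher and 14.6% lower. Pfkl had ratios of 0.68, 0.91 and 0.45, with a mean of 0.68 ± 0.23 (SD, n = 3) and an adjusted p of 0.0220. All 3 kidney arrays lay above 0. Without the first or the second kidney array Pfkl missed the threshold (adjusted p 0.0867 and 0.130).

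Tpi1 had kidney ratios of -0.54, -0.61 and -0.65, a mean of -0.60 ± 0.06 (SD, n = 3) and an adjusted p of 0.00875. Its 3 arrays lay close together, and without the third the adjusted p was 0.0516. Ldha had -0.11, -0.28 and -0.50 in kidney, all below 0, with a mean of -0.29 ± 0.20 and an adjusted p of 0.0986. Without the third brain array, which enters the shared error, the same Ldha mean passed at 0.0491.

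Gapdh, Pgk1 and Pgam1, all lower in liver, stayed near 0 in kidney. Gapdh had -0.07, -0.14 and 0.04, Pgk1 had -0.02, -0.14 and 0.10, and Pgam1 had -0.03, -0.12 and 0.13. Each of the 3 genes had its lowest kidney value on the second array and its highest on the third. Aldoa had -0.05, 0.70 and 0.11 in kidney, with the second array far above the other 2. Of 8 proximal tubule markers, 1 was lower in kidney (Kap, -0.84) and 7 did not pass. Of 8 macrophage and microglia markers 1 was higher and 3 were lower in kidney, of 7 neuron and astrocyte markers 2 were higher, of 3 erythroid markers 1 was lower and of 9 skeletal muscle markers 4 were lower. Of 7 hepatocyte markers 0 passed there, and of all rows 29.6% passed in kidney. The part of these cells in the kidney ratios was not tested.

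In brain, 0 of the 7 genes passed, against 20.7% of all rows (10.7% higher and 9.96% lower), and 1 of them, Pfkl, had an unadjusted p under 0.05 (0.0317). The median of the 7 SDs over arrays was 0.51 in brain, against 0.18 in liver and 0.13 in kidney. Pgk1 had -0.49, -1.41 and 0.48, Pgam1 had -0.70, -0.21 and 0.90, and Aldoa had 0.0043, -0.66 and 0.35. The third array was the highest of the 3 for each of them, and their spread covered both sides of 0. Gapdh (-0.43, 0.03 and 0.25), Ldha (-0.14, 0.06 and 0.43) and Pfkl (0.32, -0.01 and 1.09) were also highest on that array. Tpi1 was the exception, with -0.16, -0.37 and -0.28.

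On the first and second brain arrays 5 of the 7 genes were below 0, and on the third only Tpi1 was. Without the third brain array, Pgk1 (-0.95, adjusted p 0.00696) and Pgam1 (-0.45, adjusted p 0.0441) were lower in brain, 2 of 7 against 22.1% of all rows. Pgk1 then rested on values of -0.49 and -1.41, which were themselves far apart. Pfkl then had 0.16 (adjusted p 0.514), against 0.47 with all arrays. Gapdh then had -0.20, Ldha -0.040, Aldoa -0.33 and Tpi1 -0.27, and none of these 4 passed (adjusted p 0.251 to 0.850). Of 7 neuron and astrocyte markers, 1 was higher and 2 were lower in brain with all arrays, and of 3 erythroid markers and 8 macrophage and microglia markers 1 each was higher. With all arrays 20.7% of all rows passed in brain.

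The difference in strain ratio between tissues was tested in the same fit, where a dye effect of a probe cancels as far as it behaves alike in both tissues. Ldha in liver minus brain was -0.83 (95% confidence interval -1.22 to -0.45, adjusted p 0.0172), with liver ratios of -0.53 to -0.84 and brain ratios of -0.14 to 0.43. The groups did not overlap, and the share of all rows for which this holds is not given here. It was the only difference of the 7 genes that passed between liver and brain, where 9.37% of all rows passed and 4.24% were lower. Without the second or the third liver array it was -0.80 and -0.77 and missed the threshold (adjusted p 0.0569 and 0.0573).

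Between liver and kidney, 0 of the 7 genes passed with all arrays, against 19.2% of all rows. The liver and kidney arrays of Gapdh, Pgk1, Pgam1, Ldha, Aldoa and Tpi1 did not overlap. The share of all rows without such an overlap is not given here. The nearest arrays of Ldha had -0.50 in kidney and -0.53 in liver. Aldoa differed by -0.84 (95% confidence interval -1.47 to -0.20), Pgk1 by -0.77 (-1.58 to 0.04), Pgam1 by -0.70 (-1.42 to 0.03), Ldha by -0.42 (-0.81 to -0.03) and Gapdh by -0.33 (-0.70 to 0.04). Tpi1 went the other way, by 0.48 (0.06 to 0.91), and Pfkl, whose arrays overlapped, by -0.36 (-0.95 to 0.24). Adjusted p-values of the 7 genes ran from 0.0679 for Aldoa to 0.372 for Pfkl. Without the third brain array, Pgam1, Pgk1 and Aldoa passed between liver and kidney with the same means (adjusted p 0.0145, 0.0283 and 0.0439). That array enters the shared error of every row, and the share of all rows that passed without it is not given here.

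Between kidney and brain, 0 of 7 passed, against 5.33% of all rows, and the intervals were wide. Ldha differed by -0.41 (95% confidence interval -0.80 to -0.02), Tpi1 by -0.33 (-0.75 to 0.10) and Gapdh by -0.0021 (-0.37 to 0.37). Pgk1, whose difference was 0.45 with all arrays, passed without the third brain array (0.93, adjusted p 0.0331).

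The 232 Gapdh spots gave a view of the spread within an array that no other gene of the set had. Of these spots, 231 had probe numbers that are multiples of 8, in 2 runs that covered the numbers 968 to 1920 (116 spots) and 2888 to 3840 (115 spots). The other spot had the number 5781. Spots of 1 array share their hybridisation and are no replicates of the strains. Mouse Gapdh has many processed pseudogenes, and whether the probe also binds their transcripts was not tested.

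Within an array, the interquartile range over Gapdh spots was 0.17 to 0.46 and the SD 0.20 to 0.51. Of the 232 spots, 205, 218 and 205 were below 0 on the 3 liver arrays. On the kidney arrays 139, 163 and 101 spots were below 0. On the brain arrays the numbers were 229, 99 and 22, so nearly all spots lay below 0 on the first array and nearly all above it on the third. In liver 187 spots were below 0 on all 3 arrays, in kidney 83 and in brain 14.

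**Figure D2:**
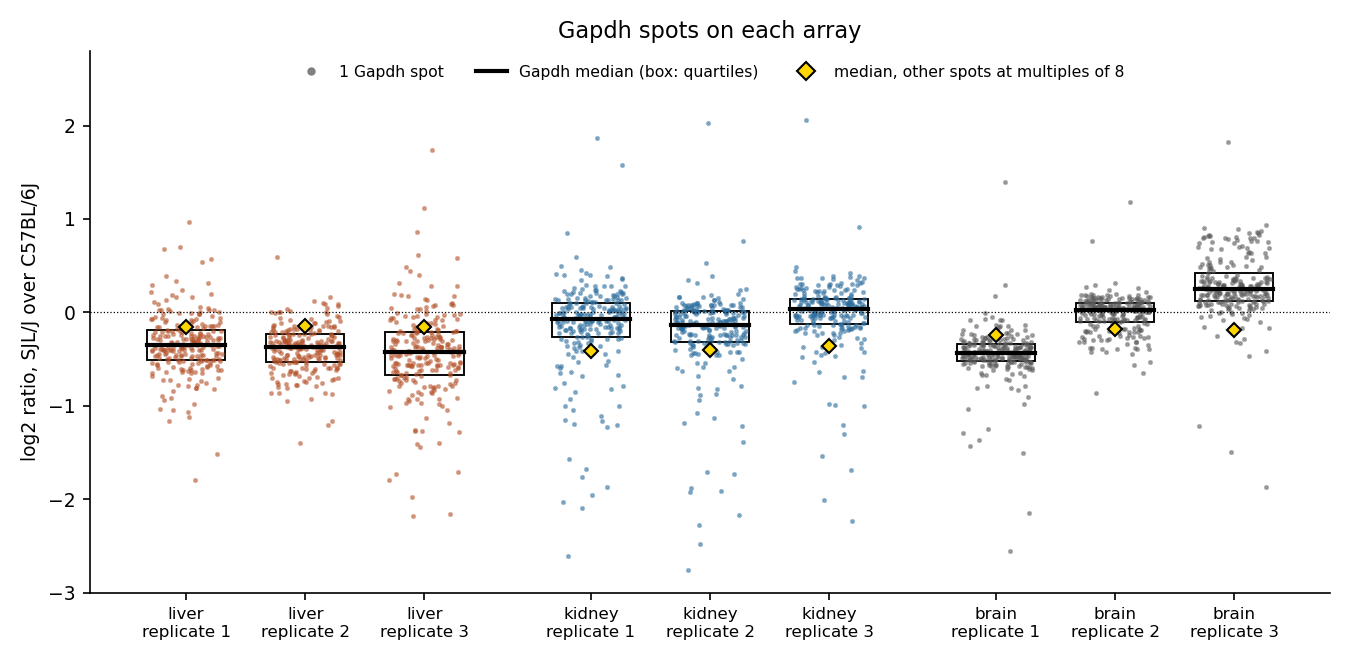
Log2 ratio of SJL/J over C57BL/6J (vertical axis) of each of the 232 Gapdh spots on each of the 9 arrays (horizontal axis), with box and bar for the quartiles and median and a diamond for the median of the other spots at multiples of 8. The Gapdh medians of the 3 liver arrays lie between -0.43 and -0.35, below their diamonds, and those of the 3 brain arrays run from -0.43 to 0.25.

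Single Gapdh spots gave widely different ratios, most of all in kidney. The means of single spots over the 3 arrays ran from -0.83 to 0.09 in liver (5th to 95th percentile), from -0.95 to 0.24 in kidney and from -0.32 to 0.17 in brain. When every spot of the array was tested singly, 102 of 232 Gapdh spots were lower in liver, 1 was higher and 129 did not pass, against 12.4% of all spots lower and 12.8% higher. In kidney 30 Gapdh spots were lower and 3 higher, against 14.5% of all spots lower and 14.5% higher, and in brain 3 were lower and 1 higher, against 9.87% and 10.4%.

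The other 2649 spots at multiples of 8 also leaned below 0. Their medians averaged -0.15 in liver, -0.39 in kidney and -0.20 in brain, and 28.9%, 53.3% and 29.6% of them were lower in those tissues when tested singly. Gapdh minus these spots was -0.23 ± 0.04 in liver, 0.34 ± 0.07 in kidney and 0.15 ± 0.32 in brain (SD, n = 3). Set against these spots, Gapdh thus lay lower on all 3 liver arrays and higher on all 3 kidney arrays. The part of probe position in the Gapdh ratios was otherwise tested only by the settings that follow.

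In another setting the median of each line of 24 consecutive probe numbers and of each of the 24 positions along the lines was taken out on every array. Gapdh then had -0.16 in liver, which no longer passed (adjusted p 0.271), and 0.31 in kidney, which was higher (adjusted p 0.0427). Its difference between liver and kidney passed in that setting (-0.47, adjusted p 0.0431), where it was -0.33 with an adjusted p of 0.188 before. The Gapdh spots make up part of those medians. With them left out of the medians, Gapdh had -0.22 in liver (adjusted p 0.193) and 0.33 in kidney (adjusted p 0.0605).

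Some Gapdh spots lay far from the others on several arrays. Of the 232, 22 lay over 1 from the array's Gapdh median on at least 1 array and 11 did so on at least 3 arrays, and 9 of these 11 were below the median wherever they were far. The 9 spots far on all kidney arrays compare with 1 on all brain arrays and 0 on all liver arrays. The spot numbered 1344, for example, had -2.61, -2.76 and -2.23 in kidney, -1.03, -1.16 and -2.18 in liver and -2.56, -0.57 and -1.49 in brain. The spot numbered 3472 was above the median wherever it was far, with 1.86, 0.53 and 2.06 in kidney, 0.97, -0.79 and 1.12 in liver and 1.40, 1.18 and 1.82 in brain, but lay below the median on the second liver array. The spot numbered 3776 was far on both sides, with -1.16, -1.88 and -0.98 in kidney and 0.68, -0.19 and 0.58 in liver.

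Spots of the same number held their order best in kidney, where the correlation over the 232 spots between pairs of arrays was 0.81 to 0.89. In liver it was 0.41 to 0.71, and between the first and second brain arrays 0.42 (Pearson r over spots that share the array, a description). Without the 22 far spots it was 0.56 to 0.83 in kidney, 0.28 to 0.66 in liver and 0.09 in that brain pair. The median over all spots moved little when the far spots were left out, to between -0.41 and -0.34 on the liver arrays.

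**Figure D3:**
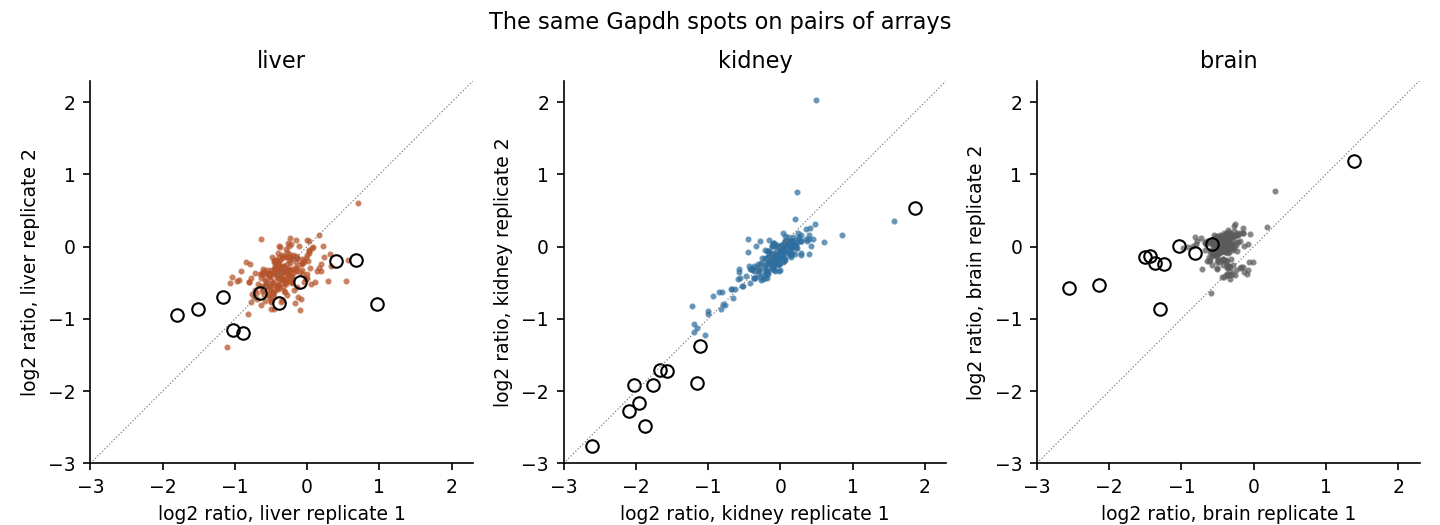
Log2 ratio of SJL/J over C57BL/6J of the 232 Gapdh spots on the first (horizontal axis) and second (vertical axis) array of liver, kidney and brain, 1 point for each spot, with circles for the 11 spots that lay over 1 from the array's Gapdh median on at least 3 arrays. The kidney spots follow a line (r 0.89), with the circled spots mostly at its lower end, and the brain spots form a cloud (r 0.42).

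The neighbouring spots of some of the other genes were also off 0 in liver. The lines that hold Pgam1 and Tpi1 had liver medians of -0.30 and -0.31, whereas those of Ldha and Pgk1 had -0.17 and -0.04. Some lines held several glycolysis genes. Pgam1 shared its line with Ldhb, Tpi1 with Ldhc, Aldoa with Pgk2, and Pfkm with Pfkp and Pklr. Such genes enter the median of their own line, so taking it out can also remove a change that they share. How much it did so was not tested. With line and column medians taken out, Ldha (-0.54, adjusted p 0.00898) and Pgk1 (-0.74, adjusted p 0.0478) stayed lower in liver. Pgam1 then had -0.38 (adjusted p 0.239) and Aldoa -0.40 (adjusted p 0.211). In kidney Pfkl stayed higher (0.54, adjusted p 0.0426) and Tpi1 lower (-0.56, adjusted p 0.0263).

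The wider list of glycolysis genes held 28 genes, of which 23 were measured, the 7 above included. In liver 9 of the 23 were lower, 0 were higher and the median was -0.35, against 12.2% of all rows lower and 13.2% higher. Of the 16 beyond the 7, 5 were lower, namely Ldhb and Ldhc, which encode the heart-type and testis-type lactate dehydrogenase subunits, Gckr, the regulatory protein of glucokinase, Pklr, the pyruvate kinase of liver and red cells, and Pfkm, the muscle-type phosphofructokinase. All 3 lactate dehydrogenase genes were lower in liver, but with line and column medians taken out only Ldha was. Ratios give no level, so whether Ldhc is expressed in liver could not be checked.

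Ldhb had liver ratios of -0.43, -0.66 and -0.51 and a mean of -0.53 ± 0.12 (SD, n = 3, adjusted p 0.00604). Ldhc averaged -0.48 ± 0.15 (adjusted p 0.0152), Pfkm -0.37 ± 0.11 (0.0200), Gckr -0.40 ± 0.30 (0.0344) and Pklr -0.39 ± 0.36 (0.0439). Ldhb passed with each array left out, while the other 4 missed the threshold without 1 or more of the liver arrays (highest adjusted p 0.106 to 0.278). Gckr and Pklr were below 0 on every liver array but spread widely. With line and column medians taken out, 2 of the 23 genes, Ldha and Pgk1, were lower in liver, and Ldhb had -0.23, Ldhc -0.16, Gckr -0.26, Pklr -0.11 and Pfkm -0.09. Their lines had liver medians of -0.15 (Gckr) to -0.31 (Ldhc), and Ldhb, Ldhc, Pfkm and Pklr shared theirs with other genes of the list. The share of all rows that passed with line and column medians taken out is not given here.

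Between tissues, 6 of the 23 genes were lower in liver minus brain (Ldha, Ldhb, Gapdhs, Pfkm, Aldoc and Eno3), against 4.24% of all rows. In liver minus kidney 2 were lower (Ldhb and Gckr), against 9.35% of all rows, and in kidney minus brain 2 (Aldoc and Eno3), against 2.68%. In each of the 3 differences 0 were higher. Ldhb had -0.75 in liver minus brain (adjusted p 0.0163) and -0.72 in liver minus kidney (adjusted p 0.0116). These were -0.40 (adjusted p 0.0977) and -0.41 (0.0690) with line and column medians taken out, and without the second liver array the first was -0.68 (0.0577). All liver arrays of Ldhb lay below its kidney and brain means of 0.19 and 0.22. With line and column medians taken out, Pfkm, Aldoc and Eno3 also missed the threshold in liver minus brain (adjusted p 0.127, 0.472 and 0.0691). Eno3 did so in kidney minus brain too (0.0644), and its first probe alone gave 0.29 and 0.25 in these differences. With arrays left out in turn, Pfkm in liver minus brain and Ldhb in liver minus kidney always passed. The others missed it without at least 1 array (highest adjusted p 0.0573 to 0.139).

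In kidney, 1 of the 23 genes was higher (Pfkl) and 4 were lower, 5 in all against 29.6% of all rows. Beside Tpi1 these were Aldoc, the brain-type aldolase, at -0.38 ± 0.03, Pkm, the pyruvate kinase of muscle and most other tissues, at -0.31 ± 0.03, and Bpgm, which makes 2,3-bisphosphoglycerate, at -0.28 ± 0.12 (SD, n = 3). Without the first, the second or the third kidney array, 1, 1 and 2 of the 23 genes passed. The share of all rows that passed in those fits is not given here. With line and column medians taken out, Pkm and Bpgm no longer passed (adjusted p 0.293 and 0.221).

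In brain, 3 of the 23 were higher and 1 was lower, 4 in all against 20.7% of all rows. Eno3, the muscle-type enolase, averaged 0.78 ± 0.14 (SD, n = 3), but its 2 probes disagreed, with -0.11 and 1.66. Gapdhs, the sperm-type homolog of Gapdh, averaged 0.48 ± 0.36 and Pfkm 0.35 ± 0.22, and Bpgm averaged -0.33 ± 0.15. Without the third brain array Gapdhs had 0.27 and no longer passed (adjusted p 0.0901). Pfkm and Bpgm no longer passed without the first or the second brain array.

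**Figure D4:**
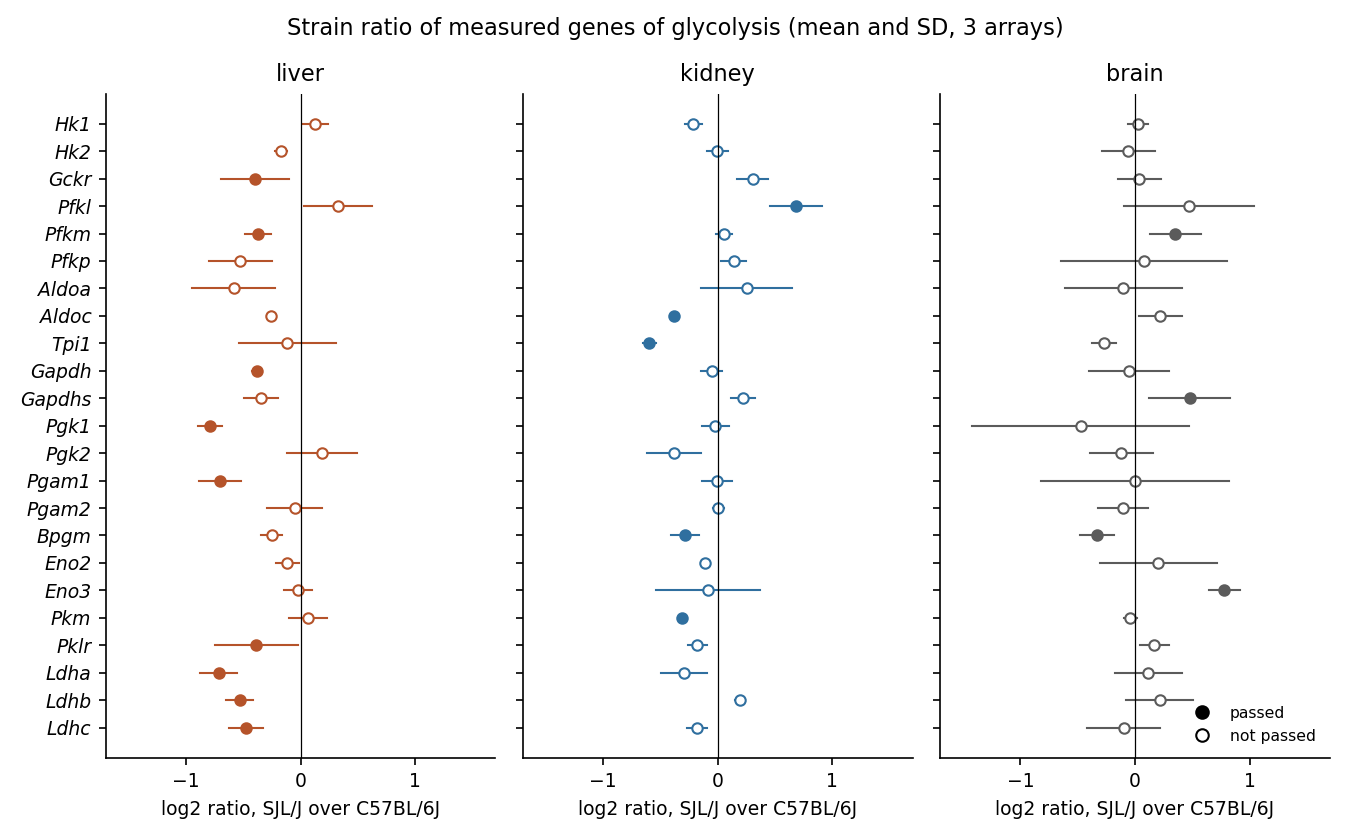
Log2 ratio of SJL/J over C57BL/6J (horizontal axis, mean and SD of 3 arrays) of the 23 measured glycolysis genes in pathway order (vertical axis) in liver, kidney and brain, filled where limma's adjusted p was under 0.05. In liver all 9 filled points lie left of 0, and in brain 3 of 4 filled points lie right of it.

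Genes next to the pathway moved in both directions in liver. Of 21 measured regulators, transporters, pyruvate dehydrogenase genes and genes of gluconeogenesis, 3 were higher, 6 were lower and the median was -0.15, against 13.2% of all rows higher and 12.2% lower. G6pc, the glucose 6-phosphatase that releases glucose, had -2.73, -2.86 and -2.59 and was the lowest. Pdk4, a kinase that shuts off pyruvate dehydrogenase, averaged -0.89 ± 0.19 and Pdhb, a subunit of that enzyme, -0.60 ± 0.04. Fbp2, a fructose bisphosphatase of muscle, averaged -0.63 ± 0.10, Pfkfb3 -0.61 ± 0.54 and the lactate transporter Slc16a1 -0.47 ± 0.06. Dlat, the acetyltransferase of the pyruvate dehydrogenase complex, was higher at 1.22 ± 0.91, with 2.25 on the first array and 0.51 on the second. The glucose transporter Slc2a4 (0.53 ± 0.20) and Pfkfb2 (0.37 ± 0.17) were also higher, and the 2 probes of Pfkfb2 had 0.63 and 0.12. Of these 9 genes, G6pc and Fbp2 passed with each array left out in turn, and the other 7 missed the threshold without 1 or more of the liver arrays (highest adjusted p 0.105 to 0.206). With line and column medians taken out, Pdk4 (adjusted p 0.0636), Pfkfb3 (0.0535) and Slc16a1 (0.103) no longer passed.

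In kidney, 1 of these 21 genes was higher and 1 lower, against 29.6% of all rows in either direction. Pck1, a gene of gluconeogenesis, had 1.64, 0.99 and 0.49, and the glucose transporter Slc2a1 had -0.86, -0.40 and -0.43. In brain 2 were lower, G6pc (-1.54 ± 0.45) and Fbp2 (-0.35 ± 0.30), against 9.96% of all rows. G6pc was thus lower on all liver and brain arrays, and it passed in both tissues with each array left out. It had a single probe, and whether it is expressed in brain could not be checked from ratios. Pck1 missed the threshold without the first or the second kidney array (highest adjusted p 0.0942), Slc2a1 when any single kidney array was left out (0.187), and Fbp2 in brain when any single array other than the third brain array was (0.243).

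Gapdh is widely used as a reference gene, and 14 other genes in common use as such were measured. In liver 3 of them were lower and 1 was higher, 4 of 14 against 25.4% of all rows, in kidney 4 passed against 29.6% and in brain 2 against 20.7%. Ywhaz had -1.01, -1.55 and -0.46, Hprt averaged -0.81 ± 0.41 and Gusb -0.46 ± 0.33 (SD, n = 3), all with means farther from 0 than Gapdh. Their spread was wider, but they had 1 probe each and Gapdh is a median over 232 spots. Tfrc averaged 0.74 ± 0.04, but its probes had -0.97 and 2.45, and with line and column medians taken out it had -0.44. In kidney Gusb (-0.77 ± 0.06) and Sdha (-0.61 ± 0.10) were lower and Rplp0 (0.52 ± 0.09) and Tubb5 (0.39 ± 0.12) higher. Sdha lies at a multiple of 8 and had 0.07 with line and column medians taken out. In brain Gusb (-0.63 ± 0.19) and Tfrc (-0.53 ± 0.09) were lower. Gusb was lower in all 3 tissues with all arrays, whereas Gapdh passed in liver alone. With line and column medians taken out, Gusb, Rplp0 and Tubb5 did not pass in any of these tissues (adjusted p 0.0720 to 0.453). Ywhaz in liver, Tfrc in liver and brain and Gusb in kidney passed with each array left out, and the others missed the threshold without at least 1 array (highest adjusted p 0.0518 to 0.177).

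The genes whose 9 array values were most like the median of the 7 glycolysis genes were found by Pearson r among 14982 genes outside the lists. They were Dazap1 (0.98), Mybpc3 (0.97), Lypla2 (0.97), Atp6v1e1 (0.96) and Cdk11b (0.96), over 9 arrays that share pools within a tissue, as a description. That median was -0.46, -0.37 and -0.75 on the liver arrays, -0.05, -0.14 and 0.10 on the kidney arrays and -0.16, -0.21 and 0.43 on the brain arrays. All liver values lay below all kidney and brain values.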

How the data were processed

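RNA of SJL/J and C57BL/6J pools was compared on 9 arrays. The authors deposited 1 log ratio per spot and array, taken here as log2 by limma's convention. The submitters' processing notes name limma and R 2.0.0, but no source used here states the base, the direction, the background correction or the normalization. All columns held the same sorted values, with 0 missing. Arrays give no counts, so their number limits the precision, and no filter on dim spots was possible. The tissue label of channel 1 reads brain on kidney and liver arrays, and the titles were followed.

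Symbols came from the platform annotation. Of 23040 probes, 16874 had a single symbol, 134 several and 6032 none. Probes of a gene were averaged, and Gapdh was the median over its spots. The resulting 21262 rows were fitted with limma 3.58.1 in R 4.3.3, with 1 coefficient for each tissue and no block (6 residual degrees of freedom). Tests were two-sided moderated tests against 0 or between tissues, with Benjamini-Hochberg adjustment over all rows. The fit was tested on simulated data. Alternatives were line and column medians taken out, multiples of 8 left out, other centring, other handling of probes and rows, each tissue alone, array weights, a replicate block and each array left out. Leaving out far Gapdh spots, or multiples of 8 other than Gapdh, and recounting the wider list under each setting, differences between tissues included, were added after seeing the data.

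The genes and lists were chosen with earlier results of these data known. Text names every glycolysis gene of the set, up to 4 genes per role of each other list with the largest means among those that passed in a tissue, and the 5 genes most like the set. Marker genes and single Gapdh spots named as examples were chosen after their values were seen. Replicate numbers did not pair the arrays (correlation of same-numbered deviations -0.085 to 0.051).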

Additional observations from a re-analysis of the deposited data

Results flagged for a closer look

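The strain ratio of Ldha differed between liver and brain by the test of the difference itself, an interaction of strain and tissue in limma's fit. It was -0.83 in liver minus brain (adjusted p 0.0172), with means of -0.71 in liver and 0.12 in brain. Ldha was below 0 on all 3 liver arrays and on 1 of the 3 brain arrays. Without the third brain array, which stood apart from the others, the difference was -0.68 (adjusted p 0.0311). Without the second or the third liver array it was -0.80 (adjusted p 0.0569) and -0.77 (adjusted p 0.0573).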

How the results depend on the processing

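Ldha in liver passed under every alternative tried. The counts in this section stand without the share of all rows that passed in each setting, which can differ between settings. They are therefore no result about glycolysis genes as such. With line and column medians taken out, with the Gapdh spots in or left out of the medians, 2 genes of the set passed in liver (Ldha and Pgk1), 2 between liver and kidney, and of the wider list 2 passed in liver, 2 in brain, 6 in liver minus kidney, 2 in liver minus brain and 1 in kidney minus brain. Gapdh then had -0.16 or -0.22 in liver (adjusted p 0.271 and 0.193), 0.31 or 0.33 in kidney, 0.12 or 0.14 in brain and 0.18 or 0.19 in kidney minus brain. Values near 0 that changed side in these 2 settings were Pfkl in liver minus brain (0.038 and 0.041), Pgam1 in kidney (0.032 and 0.033) and in kidney minus brain (0.040 and 0.043), Pgk1 in kidney (0.12 in both) and Tpi1 in liver (0.20 in both). Sdha in kidney had 0.074 or 0.10 and Tfrc in liver -0.44 in both. The cause was not tested.

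Without probes at multiples of 8, Gapdh rests on 1 spot and had 0.35 in brain and -0.30 in liver (adjusted p 0.196), and 2 genes of the set passed in liver. With other centring, 4 of the wider list passed in liver minus kidney. With the first probe of each gene, 1 passed in kidney minus brain, Eno3 had -0.11 in brain, 0.29 in liver minus brain and 0.25 in kidney minus brain, and Tfrc in liver had -0.97, from the probe kept. With array weights, which gave the third brain array 0.34, 1 gene of the set passed in brain, 3 between liver and kidney, and of the wider list 9 in kidney, 14 in liver and 10 in liver minus kidney. Pfkl in liver minus brain then had 0.057, Pgk1 0.088, and in kidney minus brain Gapdh had 0.017 and Pgam1 0.19. With each tissue or pair of tissues alone, 3 of the set passed between liver and kidney, and of the wider list 1 in brain, 8 in liver minus kidney, 3 in liver minus brain and 0 in kidney minus brain. Without the far Gapdh spots Gapdh in kidney minus brain had 0.0071. The replicate numbers did not pair the arrays. With the replicate block, 2 of the wider list passed in brain and 0 in kidney minus brain, Pgam1 in liver missed the threshold (adjusted p 0.0546), and Pfkm (0.0506) and Bpgm (0.0526) in brain, Bpgm in kidney (0.0670), Fbp2 in brain (0.0565) and Slc2a4 in liver (0.0577) did so too.

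With 1 array left out in turn, genes of the set that passed numbered 1 to 5 in liver, 1 to 3 in kidney, 0 to 2 in brain, 0 to 3 between liver and brain, 0 to 3 between liver and kidney and 0 to 1 between kidney and brain. Fewest passed in liver when any single kidney array or the first or the third liver array was left out (1 each). Of the wider list 3 to 13 passed in liver, 1 to 7 in kidney, 2 to 5 in brain, 1 to 10 in liver minus kidney, 1 to 6 in liver minus brain and 0 to 3 in kidney minus brain. Gapdh ran from -0.40 to -0.36 in liver (adjusted p 0.00980 to 0.148), from -0.20 to 0.14 in brain and from -0.19 to 0.15 in kidney minus brain. Values that changed side were Aldoa (-0.33 to 0.18), Ldha (-0.040 to 0.25) and Pgam1 (-0.45 to 0.35) in brain, Pgam1 (-0.076 to 0.052) and Pgk1 (-0.081 to 0.038) in kidney and Tpi1 (-0.36 to 0.017) in liver. In kidney minus brain they were Pfkl (-0.026 to 0.52), Pgam1 (-0.35 to 0.45) and Pgk1 (-0.018 to 0.93), and in liver minus brain Pfkl (-0.38 to 0.17), Pgk1 (-0.79 to 0.16) and Tpi1 (-0.089 to 0.29). None of these had passed with all arrays. The 3 arrays per tissue and the lack of a filter on dim spots limit all values.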

Other observations

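Of 14 measured targets of the hypoxia factor HIF-1 outside glycolysis, 3 were lower in SJL/J liver, 2 were higher and the median was -0.20, 5 in all against 25.4% of all rows. Adm, which encodes the vasodilator adrenomedullin, had -0.77, -0.75 and -0.90. Egln3, an oxygen-sensing prolyl hydroxylase, averaged -0.79 ± 0.15 and Bnip3, a mitochondrial protein of mitophagy, -0.69 ± 0.17 (SD, n = 3). Hmox1, the heme oxygenase, averaged 0.52 ± 0.19 in liver and Car12, a carbonic anhydrase, 0.37 ± 0.13. The list thus held genes that moved in both directions in liver. In kidney Car12 was higher (0.40 ± 0.14) and in brain Hmox1 was lower (-0.48 ± 0.23). Adm, Egln3 and Hmox1 in liver passed with each array left out. Bnip3 (0.0879), Car12 in liver (0.0703) and kidney (0.356) and Hmox1 in brain (0.0809) missed the threshold with line and column medians taken out, given as adjusted p, and also without 1 or more of the arrays of that tissue.

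Of 9 measured skeletal muscle markers, 1 was higher and 1 lower in liver, 4 were lower in kidney and 2 were lower in brain, against 25.4%, 29.6% and 20.7% of all rows in either direction. Acta1 was the lowest in kidney, with -0.89, -0.98 and -0.96.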
